A study of Mus musculus with 12 samples.

Results

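The 70 genes described here encode axon guidance ligands and receptors: 20 semaphorins, 11 plexins and neuropilins, 14 Eph receptors, 8 ephrins, 7 Slit and Robo genes, and 10 netrins, netrin-G genes and netrin receptors. They were chosen by name, with at least 10 counts in 3 or more of 12 libraries, and all 70 entries whose name matched passed that limit, out of 54429 entries in the count table. By role, 36 are ligands and 34 are receptors. In 68 of them every library held at least 10 counts, the exceptions being Efna4 and Ntn5.

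The libraries were made from total RNA of brain punches taken from C57BL/6 mice, a common inbred strain, with no transgene or other allele named in the labels. There were 4 groups of 3: BLA punches of early social isolated males, BLA punches of group housed males, VTA punches of early social isolated females and VTA punches of group housed females. The labels give the regions by these letters only, give the tissue as cerebrum, and state neither the age nor the length of isolation. Sex comes from the design text, so that region and sex change together and cannot be told apart in any contrast of BLA with VTA. Nothing in the sources tells whether replicate libraries stem from separate animals, and the p-values measure only the spread among these libraries, which can be technical.

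Axon guidance proteins steer growing axons by attraction and repulsion, and many of them stay on in the adult brain, where they shape spines, synapses and vessels. Secreted class 3 semaphorins act through neuropilins, which bind the ligand, and plexins, which carry the signal, while membrane-bound semaphorins bind plexins directly. Ephrins are bound to membranes and signal in both directions with Eph receptor tyrosine kinases. The A class of ephrins is held by a lipid anchor and pairs mainly with EphA receptors, and the B class spans the membrane and pairs mainly with EphB receptors. Slits repel axons through Robo receptors. Netrin-1 attracts through Dcc and repels through Unc5 receptors, a system best known in dopamine neurons for the sorting of their forebrain targets. Netrin-G proteins are anchored at the membrane and bind adhesion partners of their own instead of Dcc.

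Depth ran between 28278708 and 69276892 counts per library. Reads of ribosomal RNA loci took up 18.58% to 41.75% of the counts in 3 BLA libraries (isolated 3, group-housed 1 and 2) and at most 1.57% elsewhere. Levels are given as CPM, the unit that divides a count by the depth of its library, here with TMM factors over all 12. The 9 dopamine neuron markers summed to 810.7 to 1713 CPM in VTA and to 49.55 to 82.23 CPM in BLA. The 9 markers of cortical and amygdalar glutamatergic neurons summed to 867.4 to 1774 CPM in BLA and to 131.1 to 549.3 CPM in VTA. The levels of both lists went with the labelled regions. The BLA libraries also held 641.4 to 2186 CPM of striatal projection neuron markers, the most in isolated library 1. Isolated VTA library 3 stood apart: it held the 549.3 CPM of cortical markers against at most 221.6 CPM in the other VTA libraries, 567.6 CPM of striatal markers against at most 175.9 CPM, and 3347 CPM of choroid plexus markers. Isolated VTA library 1 held 246.6 CPM of choroid plexus markers, and the remaining 4 VTA libraries between 22.69 and 32.09 CPM. Meningeal fibroblast markers were highest in isolated VTA library 2, at 213.6 CPM against 58.16 to 101.4 CPM in the other VTA libraries.

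Guidance genes differed widely between the BLA and VTA libraries. Of the 70, 29 were higher in BLA and 23 lower, at an adjusted p under 0.05 in edgeR's quasi-likelihood test, and 18 were not called. The members' share of 74.3% called stands beside 47.7% of all 25009 genes tested, of which 23.7% were higher and 24.1% lower. Without the low-count filter the shares were 71.4% of the members and 29.4% of all genes. The members were not matched to the other genes by expression, so these shares alone do not set them apart. At a difference of at least 2-fold, 15 members were higher in BLA and 8 lower, beside 8.29% and 9.04% of all genes in these directions. All 6 BLA libraries lay outside the range of the 6 VTA libraries for 40 members (23 above and 17 below, 57.1%), as they did for 27.1% of all genes (12.9% and 14.1%). The median absolute log2 fold change was 0.67 for the members and 0.40 for all genes tested. In bulk RNA, fewer cells of a type and less RNA per cell cannot be told apart. Among receptors 17 were higher in BLA, 9 lower and 8 not called, and among ligands 12, 14 and 10.

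**Figure D1:**
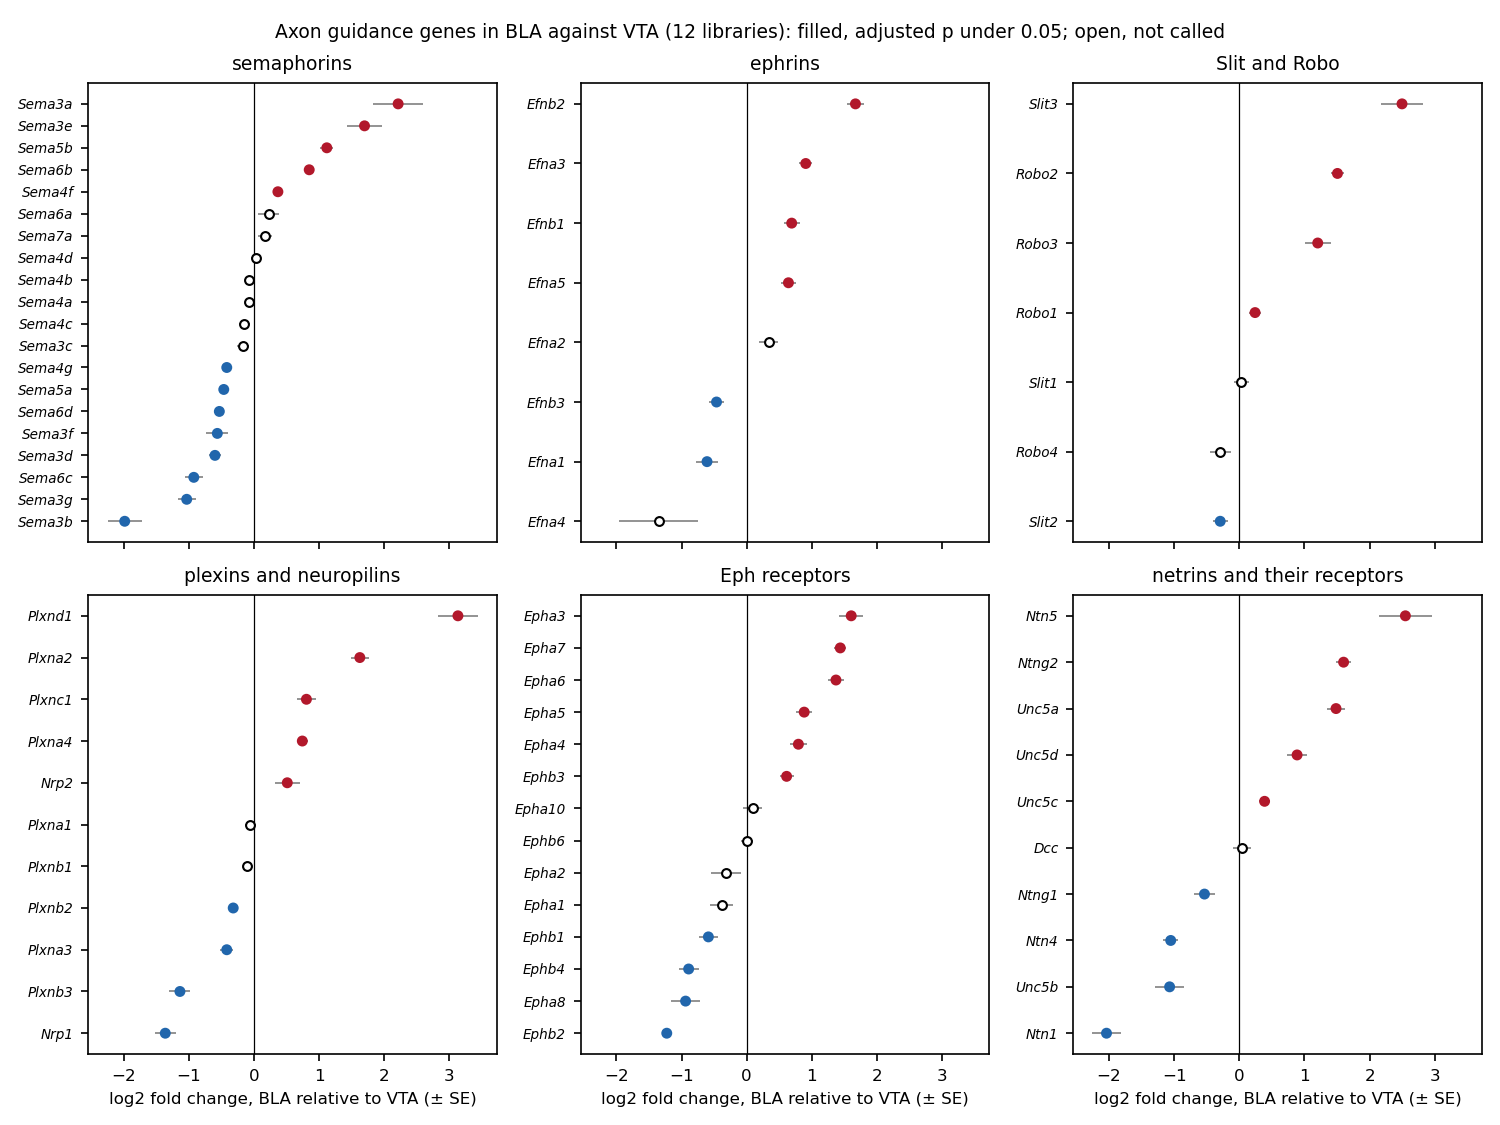
Log2 fold change of the 70 guidance genes in the 6 BLA libraries relative to the 6 VTA libraries, by family, with standard errors on the horizontal axis. Filled points passed the adjusted threshold (29 higher in BLA in red, 23 lower in blue) and the 18 open points did not. Plxnd1 lies farthest to the right at 3.13 and Ntn1 farthest to the left at -2.04.

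The plexin and neuropilin receptors held the member with the largest difference, Plxnd1 (chr6:115954811-115995005, mm10), which encodes plexin-D1, the receptor to which Sema3E binds without a neuropilin. Plxnd1 stood at 119, 141 and 189 CPM in isolated BLA libraries 1 to 3 and at 139, 169 and 156 CPM in the group-housed ones. In VTA it was at 15.2, 13.2 and 40.9 CPM after isolation and at 10.3, 12.4 and 16.3 CPM in group housing. Every BLA library was far above every VTA library, and the highest VTA value was that of isolated library 3. The log2 fold change was 3.13 (SE 0.31, adjusted p = 3.77e-05), or 8.75-fold. Without isolated VTA library 3 it was 3.48.

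The ligand of plexin-D1 was also higher in BLA. Sema3e (chr5:14025276-14256689), a secreted semaphorin known for repelling axons and vessels, was at 78.8, 50.1 and 44.1 CPM in isolated and 60.7, 57.7 and 41.4 CPM in group-housed BLA libraries. The VTA libraries gave 18.6, 11.8 and 33.6 CPM after isolation and 12.4, 11.4 and 17.3 CPM in group housing. The ranges did not overlap, with isolated library 3 again the highest of the VTA libraries and the nearest to BLA. The difference was 1.70 (SE 0.28, adjusted p = 7.75e-04) on the log2 scale.

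Promoter windows are shown for the members that differed most in each direction and have at least 1 CPM on average in the higher region and a RefSeq entry whose window lies outside the annotated gene and all exons: Plxnd1 and Sema3e, higher in BLA, and Ephb2 and Unc5b, higher in VTA. Each run is the 250 bases before the RefSeq start on the strand of the gene, in build GRCm38.p6, written 5′ to 3′. Capitals mark matches on either strand. The E-box, a site of basic helix-loop-helix factors, was searched as CANNTG. For the GC box, which Sp factors bind, the letters were GGGCGG. The promoter element bound by the TATA-binding protein was searched as TATAAA, and the cyclic AMP response element, bound by CREB, as TGACGTCA. In these 4 windows no match shares a base with another.
Plxnd1: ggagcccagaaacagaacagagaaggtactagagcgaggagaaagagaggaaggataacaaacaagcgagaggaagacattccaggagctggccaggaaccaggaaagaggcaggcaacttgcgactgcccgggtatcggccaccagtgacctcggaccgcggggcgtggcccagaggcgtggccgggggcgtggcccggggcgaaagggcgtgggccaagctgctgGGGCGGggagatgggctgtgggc
Sema3e: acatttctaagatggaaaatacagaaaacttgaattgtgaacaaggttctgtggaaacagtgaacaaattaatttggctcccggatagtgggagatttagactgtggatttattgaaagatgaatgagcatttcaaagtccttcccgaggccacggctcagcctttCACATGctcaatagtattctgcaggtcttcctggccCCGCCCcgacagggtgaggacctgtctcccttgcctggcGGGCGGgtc
Ephb2: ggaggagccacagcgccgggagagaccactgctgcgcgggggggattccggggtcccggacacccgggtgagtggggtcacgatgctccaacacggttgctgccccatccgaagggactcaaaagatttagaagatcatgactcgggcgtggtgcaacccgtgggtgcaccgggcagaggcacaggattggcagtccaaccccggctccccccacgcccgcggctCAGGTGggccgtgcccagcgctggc
Unc5b: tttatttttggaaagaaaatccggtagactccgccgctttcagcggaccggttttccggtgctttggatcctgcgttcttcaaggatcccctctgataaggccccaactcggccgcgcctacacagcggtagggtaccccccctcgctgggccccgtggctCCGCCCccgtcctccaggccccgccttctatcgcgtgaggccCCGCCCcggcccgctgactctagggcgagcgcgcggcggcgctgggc
The Plxnd1 window is chr6:115995006-115995255 on the minus strand, with 1 GC box and 64.8% G and C bases. The Sema3e window (chr5:14025026-14025275, plus strand) holds 1 E-box and 2 GC boxes at 48.0% G and C. The Ephb2 window (chr4:136836013-136836262, minus strand) holds 1 E-box at 68.4%, and the Unc5b window (chr10:60831582-60831831, minus strand) 2 GC boxes at 66.8%. The windows of this receptor and its ligand, Plxnd1 and Sema3e, differ in base composition and both hold a GC box.

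Over the 60 members with a promoter entry, 71.7% of windows held a GC box, against 32.7% of the 32851 promoters of the same length in the table, and 48.3% held an E-box, against 66.2%. A TATA sequence stood in 3.33% of member windows and 12.4% of all, and the cyclic AMP element in 1.67% and 1.55%. The median window had 64.6% G and C in the members and 52.4% in the table. The GC box was found in 63.0% of the 27 members called higher in BLA that have an entry and in 78.9% of the 19 called lower, and the E-box in 48.1% and 42.1%. These are matches of letters only, and 27 of the 60 windows overlap an exon of the GENCODE vM21 annotation. A few others lie far from the GENCODE start of the gene, such as those of Robo1 (354843 bases) and Sema3a (271370 bases). The promoters of the whole table were not matched to the members by expression and include several entries for the same gene.

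Further plexins were higher in BLA. Plxna2, a receptor for class 3 and class 6 semaphorins, ran from 231.9 to 304.8 CPM (median 259.7) in BLA and from 69.8 to 142.9 CPM (median 78.1) in VTA, a 3.08-fold difference (log2 1.62, SE 0.14, adjusted p = 2.1e-06). Plxnc1, the receptor for Sema7a, was at 78.2 to 145.9 CPM in BLA and at 54.0 to 82.3 CPM in VTA, with overlap of the ranges and a log2 difference of 0.80. Plxna4 differed by 0.74 without overlap of the ranges.

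The neuropilins, which share ligands, split between the regions. Nrp1 (chr8:128358604-128503363), the neuropilin that binds Sema3A and vascular endothelial growth factor, was at 25.1, 28.9 and 25.7 CPM in isolated and 26.1, 22.2 and 31.3 CPM in group-housed BLA libraries. In VTA it was at 56.7, 91.4 and 45.3 CPM after isolation and at 76.4, 80.7 and 61.0 CPM in group housing. All VTA libraries were above all BLA libraries, and the lowest VTA value was that of isolated library 3. The log2 fold change was -1.36 (SE 0.16, adjusted p = 4.03e-05). Nrp2, which prefers Sema3F, was higher in BLA by 0.51, at an adjusted p of 0.0497 and with overlapping ranges, a call lost in 16 of 20 alternatives.

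Of the B-class plexins, receptors for class 4 and class 5 semaphorins, none was higher in BLA. Plxnb3 was at 18.8 to 30.1 CPM (median 20.6) in BLA and at 41.5 to 68.5 CPM (median 47.0) in VTA, a log2 difference of -1.14 (SE 0.16, adjusted p = 1.3e-04). Plxnb2 differed by -0.32, also without overlap, and Plxnb1 (-0.10) was not called. Plxna3 was lower in BLA by 0.42 on the log2 scale with overlapping ranges. Plxna1 had the smallest difference of the family, -0.06, with 63.8 to 86.0 CPM in BLA and 72.3 to 88.1 CPM in VTA. Plxna3, Plxnb3 and Efnb1 lie on the X chromosome. Plexin-B3 is known from oligodendrocytes, and the 7 myelin markers summed to 2715 to 5449 CPM in BLA and 6640 to 13110 CPM in VTA. Their part in the Plxnb3 difference was not tested.

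The 20 semaphorins divided by gene, with 5 higher in BLA, 8 lower and 7 not called. Sema3a (chr5:13125414-13602565), a repellent of many cortical and sensory axons, was at 52.9, 63.0 and 57.5 CPM in isolated and 55.1, 72.1 and 63.0 CPM in group-housed BLA libraries. In VTA it was at 6.91, 9.87 and 34.8 CPM after isolation and at 9.50, 12.2 and 8.04 CPM in group housing. No VTA library reached the BLA range, although isolated library 3 was well above the other 5. The log2 fold change was 2.21 (SE 0.38, adjusted p = 1.26e-03), and 2.73 without that library. Sema5b, a transmembrane semaphorin, was higher in BLA at 22.4 to 32.7 CPM against 9.45 to 13.8 CPM (log2 1.12, SE 0.10, adjusted p = 4.42e-07). Sema6b and Sema4f complete the 5, with differences of 0.85 and 0.37 and no overlap.

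The opposite direction was led by Sema3b, a secreted semaphorin with a low level in both regions. Sema3b stood at 0.727 to 2.76 CPM (median 2.14) in BLA and 5.03 to 10.3 CPM (median 7.57) in VTA, a log2 difference of -1.99 (SE 0.26, adjusted p = 3.37e-05). Sema3g, known from endothelial cells, was at 4.30 to 6.47 CPM in BLA and 8.03 to 13.9 CPM in VTA (log2 -1.03, SE 0.14, adjusted p = 2.48e-05). The 5 endothelial markers summed to 114.6 to 131.3 CPM in BLA and 134.0 to 201.5 CPM in VTA, and their part in this difference was not tested. Sema6c, a transmembrane ligand of A-class plexins, was at 5.51 to 8.44 CPM against 9.12 to 16.5 CPM (log2 -0.93, SE 0.14, adjusted p = 5.52e-05). Sema3d, Sema3f, Sema4g, Sema5a and Sema6d were lower in BLA by 0.42 to 0.60.
Of the 7 class 3 genes, 2 were thus higher in BLA and 4 lower, with Sema3c not called. Class 4, membrane semaphorins of B-class plexins, showed the least contrast: 4 of 6 were not called, and Sema4d, at 44.9 to 55.4 CPM in BLA and 39.1 to 58.8 CPM in VTA, differed by 0.03.

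Some members that lie close together on a chromosome went opposite ways. Sema3d, Sema3a and Sema3e follow each other on chromosome 5 with gaps of 536.5 and 422.7 kb, and Sema3d was lower in BLA while Sema3a and Sema3e were higher. Efna1 and Efna3 lie 32.8 kb apart on chromosome 3 and had log2 differences of -0.61 and 0.91. Other neighbours went the same way: Ephb2 and Epha8 (93.4 kb apart), Sema3b and Sema3f (72.3 kb) and Plxnb3 and Plxna3 (556.6 kb) were all lower in BLA.

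**Figure D2:**
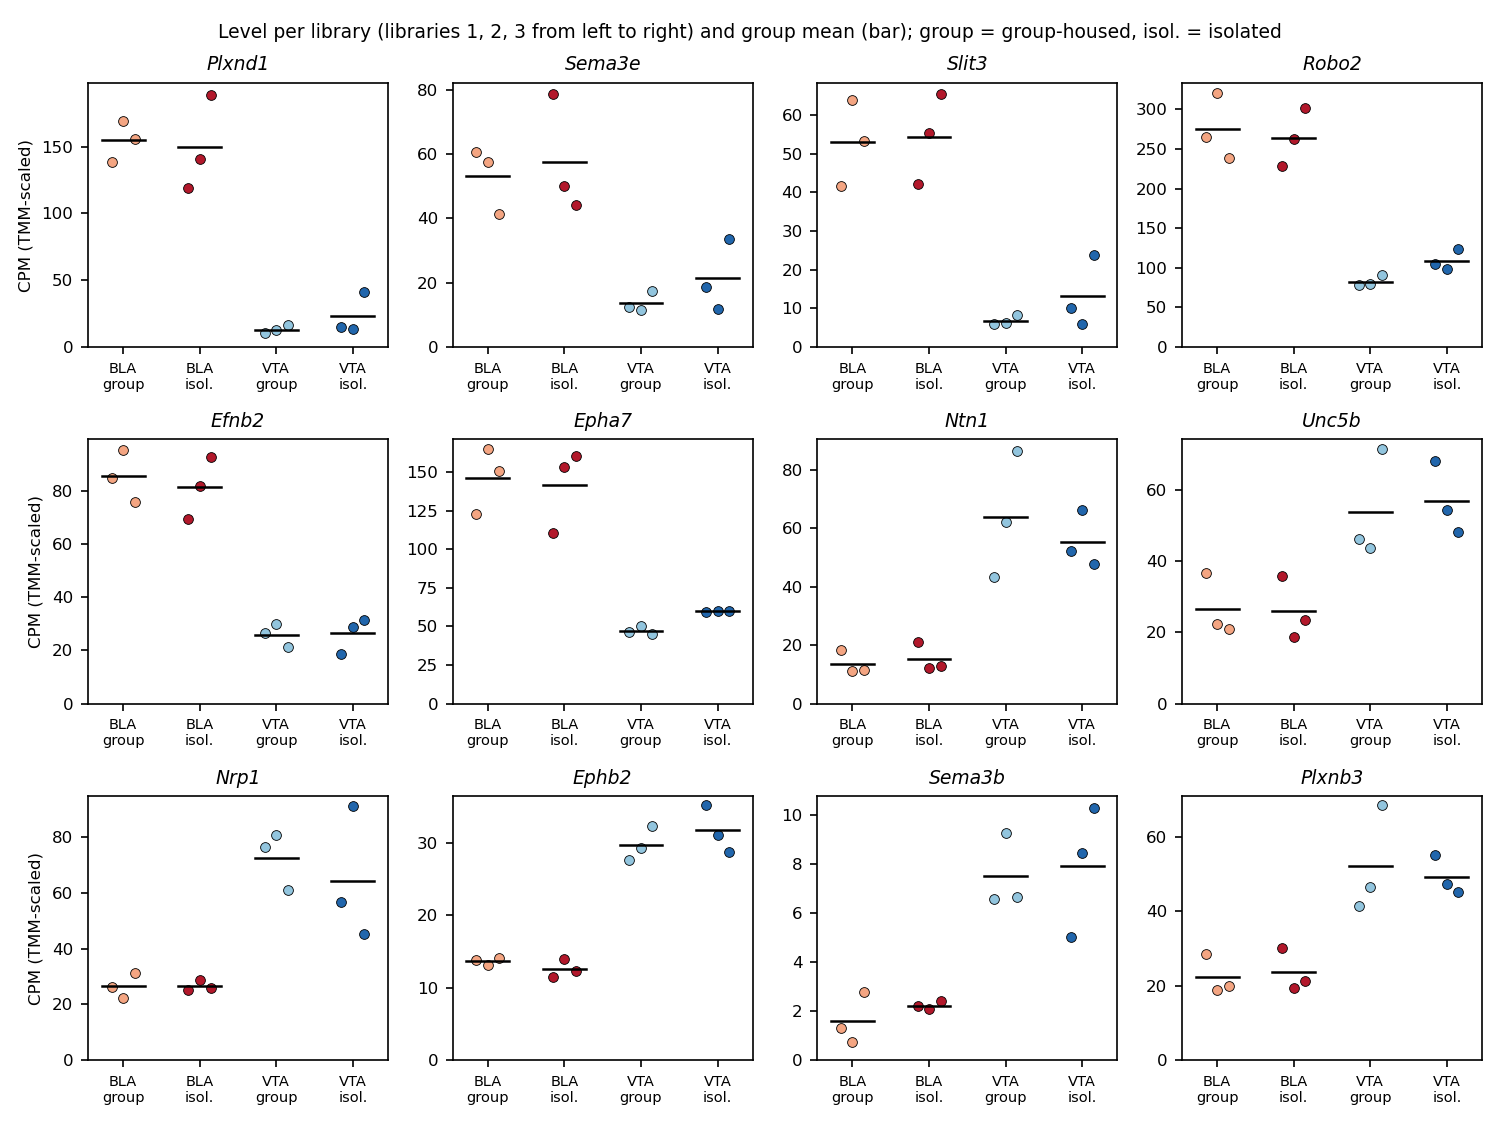
CPM of 12 guidance genes in each library (points, libraries 1 to 3 from left to right within a group) with the group mean as a bar, for BLA and VTA, group-housed and isolated; axes start at 0. Read by row, the first 6 genes are higher in BLA and the last 6 in VTA, and the highest VTA values of Plxnd1, Sema3e, Slit3 and Robo2 are those of isolated library 3 (40.9, 33.6, 23.7 and 123.4 CPM).

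Among Slit and Robo genes, Slit3 and its receptor Robo2 were both higher in BLA. Slit3 (chr11:35121224-35708507), a secreted repellent, was at 42.1, 55.4 and 65.3 CPM in isolated and 41.7, 63.9 and 53.2 CPM in group-housed BLA libraries. In VTA the values were 10, 6.03 and 23.7 CPM after isolation and 5.95, 6.08 and 8.27 CPM in group housing. The regions did not overlap, and isolated VTA library 3 was again the highest of its region. The log2 fold change was 2.498 (SE 0.33, adjusted p = 2.21e-04), a 5.65-fold difference.
Robo2 (chr16:73891839-74411825) was at 229.0 to 321.2 CPM (median 263.4) in BLA and 78.6 to 123.4 CPM (median 94.6) in VTA, a log2 difference of 1.51 with an SE of 0.09. Its adjusted p of 2.36e-08 was the smallest of all 70 members. Robo1, its neighbour on chromosome 16, differed by 0.24, a call lost in 8 of 20 alternatives. Slit1, at 53.2 to 96.6 CPM in BLA and 60.8 to 85.0 CPM in VTA, had the smallest difference of the family (0.03), and Slit2 was lower in BLA by 0.29 (adjusted p = 0.0467), a call lost in 12 of 20. The divergent receptor Robo3, known from commissural axons that cross the midline, was at 2.43 to 4.45 CPM in BLA and 1.10 to 2.76 CPM in VTA. Its difference was 1.204 over all libraries and 0.64 (adjusted p = 0.0889) between the group-housed libraries of the regions. Robo4, an endothelial receptor only 553 bases from Robo3, was not called (-0.29).

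In the ephrin and Eph system, more A-class receptors were higher in BLA than lower, and more B-class receptors were lower than higher. Of 9 EphA genes, 5 were higher, 1 lower and 3 not called. Of 5 EphB genes, 1 was higher, 3 were lower and 1 was not called. Over all genes 23.7% were higher and 24.1% lower, and these classes are small. Epha3 was at 19.1 to 44.2 CPM (median 33.9) in BLA and 8.29 to 15.2 CPM (median 10.7) in VTA (log2 1.61, SE 0.19, adjusted p = 2.95e-05). Epha7, a receptor known for repulsion, was at 110.5 to 165.0 CPM in BLA and 45.1 to 60.1 CPM in VTA (log2 1.44, SE 0.09, adjusted p = 3.45e-08). Epha6 differed by 1.37 and Epha5 by 0.88, both without overlap of the regions. Epha4, the receptor that binds ephrins of both classes, was at 208.8 to 262.6 CPM in BLA and at 108.6 to 149.4 CPM in 5 VTA libraries, while isolated VTA library 3 reached 227.3 CPM, within the BLA range. Its difference was 0.79 with that library and 0.95 without it.

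Ephb2 (chr4:136647539-136835988), an ephrin-B receptor of excitatory synapses, showed the opposite pattern with little spread. It was at 11.5, 13.9 and 12.3 CPM in isolated and 13.8, 13.1 and 14.02 CPM in group-housed BLA libraries. VTA had 35.2, 31.1 and 28.7 CPM after isolation and 27.6, 29.3 and 32.3 CPM in group housing. Every VTA library was above every BLA library, with a log2 difference of -1.23 (SE 0.08, adjusted p = 2.78e-08). Epha8 and Ephb4, a receptor known from veins, were lower in BLA by 0.94 and 0.89. Ephb6, which lacks kinase activity, was level across the regions, at 50.3 to 70.6 CPM and 47.8 to 67.5 CPM.

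The ephrin ligand with the largest difference was Efnb2 (chr8:8617434-8661242), a ligand of both Ephb2 and Ephb4 and a marker of arteries. Efnb2 was at 69.5, 82.1 and 93.1 CPM in isolated and 85.0, 95.7 and 76.2 CPM in group-housed BLA libraries, against 18.9, 29.0 and 31.5 CPM and 26.7, 30.02 and 21.2 CPM in VTA. The ranges lay far apart, and the log2 difference was 1.67 (SE 0.14, adjusted p = 8.97e-07). Efnb2 was thus higher in BLA while Ephb2 and Ephb4 were lower, as was Ephb1 (-0.59). Not all receptors went against it: Ephb3 (0.61, without overlap) and Epha4 (0.79), which binds ephrins of both classes, were higher in BLA. Efna3 was at 28.4 to 33.8 CPM in BLA and 14.1 to 24.3 CPM in VTA (log2 0.91, SE 0.10, adjusted p = 3.28e-06), with isolated VTA library 3 the highest of its region. Efnb1 differed by 0.69 and Efna5 by 0.64. Efnb3 was lower in BLA by 0.46 and Efna1 by 0.61, calls lost in 2 and 3 of 20 alternatives. Efna2 (0.34) and Efna4, at no more than 0.519 CPM in any library, were not called.

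Netrins and their receptors were called in 9 of 10 cases, 5 higher in BLA and 4 lower. Ntn1 (chr11:68209364-68400823), the founding netrin, was at 20.9, 12.1 and 12.9 CPM in isolated and 18.2, 11.2 and 11.5 CPM in group-housed BLA libraries. In VTA it was at 52.1, 66.1 and 47.9 CPM after isolation and 43.4, 62.0 and 86.6 CPM in group housing. Every VTA library was above every BLA library, and the difference of -2.04 on the log2 scale (SE 0.22, adjusted p = 4.31e-05) is a 4.11-fold higher level in VTA. Dcc, the attractive netrin receptor, was at 33.1 to 52.1 CPM in BLA and 32.6 to 50.2 CPM in VTA and differed by 0.04 (SE 0.13).

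The repulsive Unc5 receptors were split 3 to 1. Unc5b (chr10:60762593-60831581) was at 18.7 to 36.6 CPM (median 22.8) in BLA and 43.7 to 71.4 CPM (median 51.2) in VTA, a log2 difference of -1.07 (SE 0.22, adjusted p = 2.64e-03), in the same direction as Ntn1. Unc5a, Unc5d and Unc5c were higher in BLA. Unc5a was at 61.6 to 79.9 CPM in BLA, and in VTA at 19.8 to 29.6 CPM apart from 43.2 CPM in isolated library 3 (log2 1.49, SE 0.14, adjusted p = 3.83e-06). Unc5d differed by 0.89 without overlap and Unc5c by 0.39 with overlap. Ntn4, a netrin of basement membranes, was lower in BLA by 1.05 (SE 0.11), at 4.54 to 6.11 CPM against 8.52 to 12.6 CPM.
The netrin-G genes, whose products sit on the axons of different circuits, went opposite ways. Ntng2 was at 15.3 to 20.5 CPM in BLA and 3.995 to 8.54 CPM in VTA (log2 1.60, SE 0.11, adjusted p = 7.14e-08), and Ntng1 at 31.2 to 62.4 CPM against 65.1 to 82.8 CPM (log2 -0.54, SE 0.16, adjusted p = 0.0160). Ntn5 was under 1 CPM in every library, with 0.635 to 0.956 CPM in BLA and 0.0340 to 0.262 CPM in VTA.

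Between genes, levels were compared as mean CPM per kb of exon. Efnb3 had the highest mean of the ephrins in both regions (24.8 CPM per kb in BLA and 34.3 in VTA), in each housing group and without isolated VTA library 3. Robo2 led its family in BLA (15.9) and Slit1 in VTA (12.8), also in each housing group. Undivided, the VTA mean of Slit2 was above that of Slit1 (101.1 and 75.7 CPM), over 25433 and 5921 bases of exon. In BLA both housing groups were led by Sema6b among semaphorins (31.2), Epha4 among Eph receptors (29.1), Plxnd1 among plexins and neuropilins (20.8) and Unc5a among netrin genes (17.1). In VTA the first places of these 4 families were close and changed with the libraries taken. Sema6b was at 17.4 CPM per kb over the 6 VTA libraries and Sema6d at 16.4, but without isolated library 3 they were at 16.7 and 16.8. Epha4 (17.1) and Ephb6 (15.5) likewise changed places without that library, at 14.9 and 15.5. Plxnb2 (10.6) and Plxna4 (10.2) were at 9.95 and 10.2 in the isolated group, where Ntng1 (9.34) was above Ntn1 (8.82), the first of its family over all 6 (9.51). Plxnd1 was at 2.47 in VTA.

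**Figure D3:**
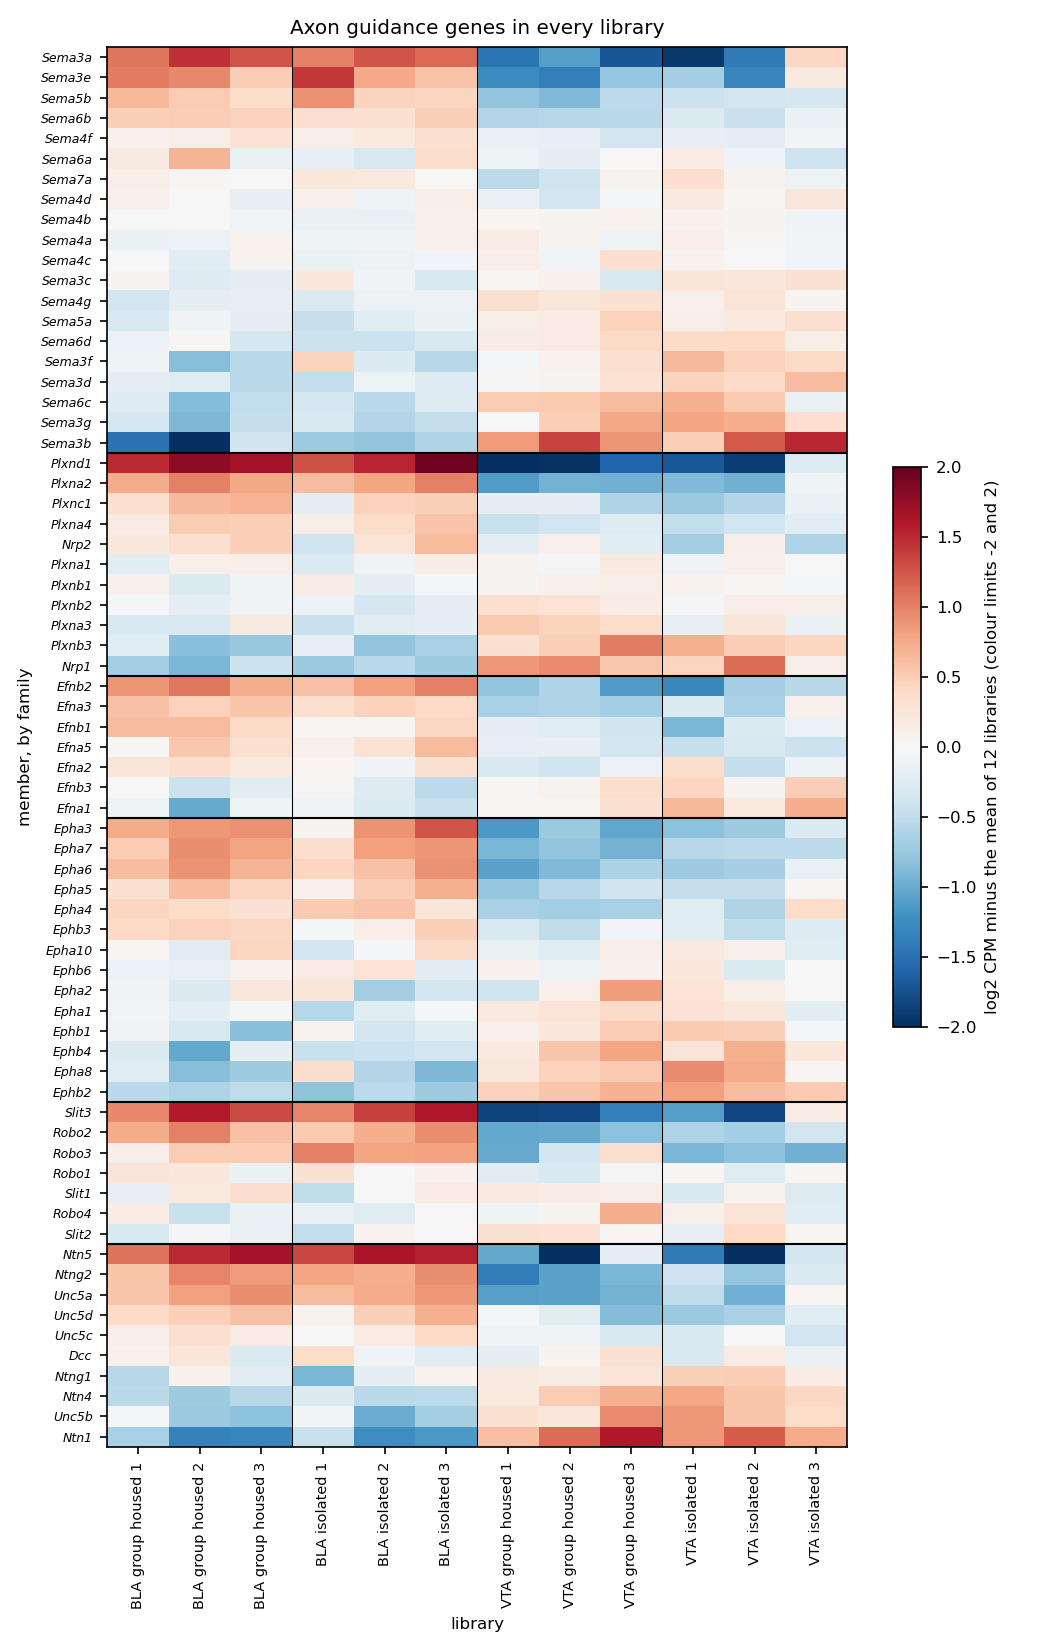
Log2 CPM of 69 guidance genes minus each gene's mean over the 12 libraries (Efna4, at 0 in 2 libraries, is left out), by family and, within a family, from the largest to the smallest BLA to VTA difference. Columns split by region rather than by housing, and isolated VTA library 3 is nearer to the BLA colours than the other VTA libraries for Sema3a, Slit3, Plxnd1 and Epha4.

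The 52 calls kept their sign in each of the 20 alternatives run, and 43 were never lost. The number of members called ran from 44, in the contrast of the group-housed libraries alone, to 53, and it was 47 without the 3 BLA libraries rich in ribosomal RNA reads and 49 without isolated VTA libraries 1 and 3. The summed markers of dopamine neurons, cortical neurons, striatal projection neurons, myelin, astrocytes, microglia, meninges and endothelium did not overlap between the regions either. Those of oligodendrocyte precursors (161.9 to 194.3 CPM in BLA and 181.4 to 249.2 CPM in VTA) and of choroid plexus (12.28 to 26.34 and 22.69 to 3347 CPM) did overlap. Striatal markers summed to 641.4 to 2186 CPM in BLA and 116.3 to 567.6 CPM in VTA, and microglia markers to 219.0 to 285.7 CPM and 126.9 to 208.3 CPM. In the astrocyte list 4 markers were called lower in BLA and 1 higher. The part of these markers in the region differences was not tested.

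Isolated VTA library 3 moved toward BLA in much of the set. It was the highest of the 6 VTA libraries for 22 of the 29 members higher in BLA, for 4 of the 23 lower in BLA and for 2 of the 18 not called. Its level relative to the mean of the other 5 VTA libraries had a median of 1.27 in the first of these sets, 0.883 in the second and 0.918 in the third. No share over all genes stands beside these counts and medians, so they do not set the guidance genes apart from other genes. Isolated VTA library 3 is part of the VTA mean, and without it the BLA to VTA differences were larger for Plxnd1, Slit3, Sema3a and Sema3e (3.48, 2.87, 2.73 and 1.94). The cortical, striatal and choroid plexus markers were highest in the same library, and their part in its guidance gene levels was not tested.

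**Figure D4:**
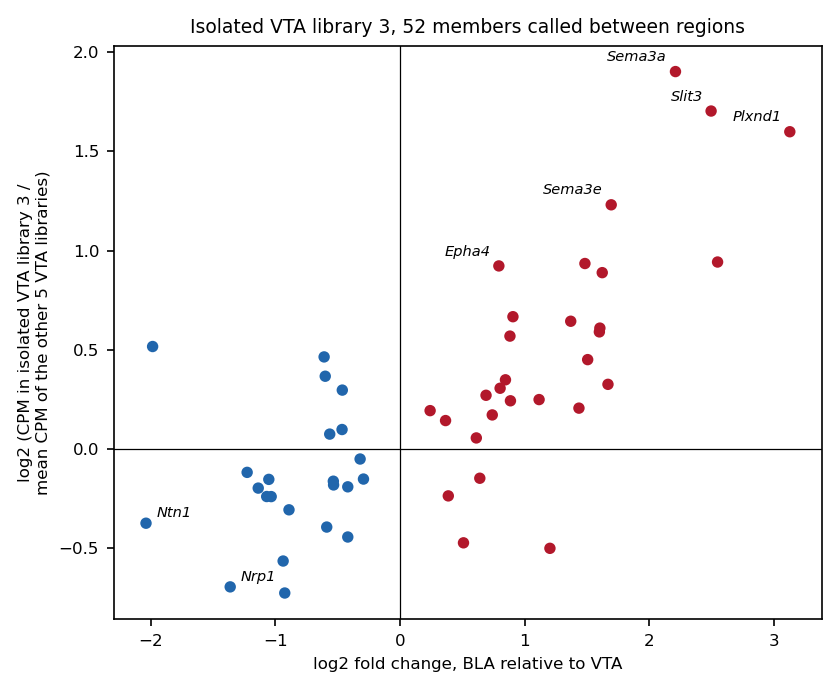
Each point is a guidance gene called between the regions (52): horizontal axis, log2 fold change of BLA relative to VTA; vertical axis, log2 ratio of CPM in isolated VTA library 3 to the mean of the other 5 VTA libraries. Genes higher in BLA (red) are mostly above 0 on the vertical axis, led by Sema3a, and genes lower in BLA (blue) mostly below it. Genes outside the set are not shown.

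No guidance gene passed the adjusted test between isolated and group-housed males in BLA. Of 69 members tested (Efna4 did not pass the count filter) 0 were called, beside 0.0% of 22110 genes. At an unadjusted p under 0.05 there were 2, or 2.90%, beside 1.99% of all genes (1.39% higher and 0.592% lower), and DESeq2 also called 0 members. That count of 2 was 0 without isolated library 1, isolated library 2 or group-housed library 1, 5 without isolated library 3, 4 without group-housed library 3, and 6 when the 3 BLA libraries with many reads of ribosomal RNA loci were left out, while the share over all genes in these fits ran from 1.58% to 3.15%. Groups did not overlap for 3 members (2 higher and 1 lower, 4.35%), beside 7.11% of all genes (4.15% and 2.96%). The median log2 fold change was -0.02, with 32 positive and 37 negative.
The smallest p was that of Efnb1, an X-linked ephrin. Efnb1 was at 13.5, 13.3 and 17.3 CPM after isolation and at 20.3, 20.2 and 17.1 CPM in group housing, with overlap of isolated library 3 and group-housed library 3 (log2 -0.38, SE 0.14, unadjusted p = 0.0178, adjusted p = 1.0). Robo3 was at 4.45, 3.83 and 3.89 CPM after isolation and at 2.43, 3.15 and 3.15 CPM in group housing, so that all isolated libraries were above all group-housed ones (log2 0.49, SE 0.20, unadjusted p = 0.0345, adjusted p = 1.0). Next by p were Sema6d at -0.24, Plxnc1 at -0.28 and Ephb3 at -0.21 in the negative direction, and Sema3f at 0.39, Ephb6 at 0.16 and Ephb1 at 0.21 in the positive one, each with overlapping groups. These values moved with single libraries: without isolated BLA library 1 Sema3f was at 0.04, Ephb1 at 0.07, Plxnc1 at -0.09 and Ephb3 at -0.11, without group-housed library 3 Ephb1 was at 0.02, without group-housed library 2 Sema6d was at -0.15, and without isolated library 2 Ephb6 was at 0.06. Ntn4 and Efna3, named after their values were seen, were the other members without overlap (0.16 and -0.14).
Isolated BLA library 1 was the lowest of its region for 26 members and the highest for 18. It also had the highest sum of striatal markers (2186 CPM against 641.4 to 1561 CPM) and the lowest of cortical markers (867.4 CPM). Without it the members' median was 0.03, with 39 positive and 30 negative. The part of these markers in the isolation values was not tested.

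Between isolated and group-housed females in VTA no guidance gene passed either, with 0 of 70 called beside 0.00415% of 24082 genes. At an unadjusted p under 0.05 there were 13, of which 10 were positive and 3 negative. This share of 18.6% is close to the 18.3% of all genes (8.73% higher and 9.58% lower). It moved with the libraries, as did the share over all genes: 22 members (31.4%, beside 29.1%) without isolated library 2, 8 (11.4%, beside 10.5%) without isolated library 1, 8 (11.4%, beside 9.27%) without group-housed library 1, 7 (beside 9.58%) without group-housed library 2, and 3 (4.29%, beside 4.44%) without isolated libraries 1 and 3. Groups did not overlap for 13 members (10 higher and 3 lower, 18.6%), beside 29.1% of all genes tested (17.5% and 11.6%). The median log2 fold change was 0.01, with 36 positive and 34 negative.
Epha7 had the smallest p: it was at 59.0, 60.1 and 60.1 CPM after isolation and 46.1, 50.1 and 45.1 CPM in group housing, with all isolated libraries above (log2 0.29, SE 0.07, unadjusted p = 3.68e-03, adjusted p = 0.236). Robo2 was likewise without overlap, at 104.2, 98.8 and 123.4 CPM against 78.6, 79.1 and 90.3 CPM (log2 0.34, SE 0.10, adjusted p = 0.236). Ntng2 was at 7.83, 6.06 and 8.54 CPM against 3.995, 4.96 and 5.51 CPM (log2 0.57, SE 0.18, adjusted p = 0.236). Sema3d was at 17.4, 16.8 and 19.7 CPM against 13.1, 13.3 and 15.7 CPM (log2 0.30, SE 0.11, adjusted p = 0.244). In Robo2, Ntng2 and Sema3d isolated library 3 was the highest, while the Epha7 values of the 3 isolated libraries were nearly equal. Cortical and amygdalar markers summed to 221.6, 168.9 and 549.3 CPM in isolated VTA libraries 1 to 3. The group-housed sums were lower, at 131.1, 137.6 and 144.3 CPM. Dopamine neuron sums overlapped between the housing groups (1106 to 1367 and 810.7 to 1713 CPM), and so did myelin sums (9671 to 13110 and 6640 to 10910 CPM). The part of these markers in the VTA isolation values was not tested.

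On the negative side, Plxna3, a receptor that works with Nrp2, was at 33.3, 44.2 and 33.8 CPM after isolation and 53.4, 50.7 and 47.7 CPM in group housing. The groups did not overlap, isolated library 2 being nearest to the group-housed ones (log2 -0.50, SE 0.13, adjusted p = 0.236). DESeq2 called Plxna3 alone among the members (adjusted p = 0.0465), 1.43% of them beside 2.01% of all genes. Slit1 was at 60.8, 79.3 and 62.8 CPM against 85.0, 83.6 and 82.8 CPM (log2 -0.36, SE 0.11, adjusted p = 0.236), and Plxnb2 at 71.1, 79.9 and 79.5 CPM against 91.8, 88.1 and 80.5 CPM (log2 -0.23, adjusted p = 0.252). Robo3 was at 1.17, 1.26 and 1.13 CPM against 1.10, 1.72 and 2.76 CPM, with overlap (log2 -0.70, SE 0.34, adjusted p = 0.301), and at -0.30 without group-housed library 3.
Without isolated VTA library 2, 4 members passed: Plxna3 (-0.66, adjusted p = 0.0225), Slit1 (-0.51, 0.0259), Nrp2 (-0.63, 0.0358) and Unc5a (0.76, 0.0462). That is 5.71% of the members, beside 4.81% of all genes in the same fit. The libraries then left in the isolated group are those with choroid plexus markers. Isolated library 2 itself held the highest sum of meningeal fibroblast markers in VTA (213.6 CPM). The part of either list in these values was not tested. Without isolated library 3 the log2 fold change of Plxnd1 went from 0.77 to 0.08, that of Slit3 from 0.90 to 0.19 and that of Sema3a from 0.74 to -0.28, whereas Epha7 stayed at 0.29 and Plxna3 was at -0.43. With isolated library 2 as the one isolated library kept, Epha7 was at 0.33, Plxna3 at -0.22, Slit1 at -0.10, Plxnb2 at -0.14 and Ntng2 at 0.31.

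All 7 class 3 semaphorins had positive fold changes in the VTA comparison, from 0.03 to 0.74, and 3 of them (Sema3c, Sema3d and Sema3f) had an unadjusted p under 0.05. Over all genes tested 49.8% were positive and 18.3% had such a p. Without isolated VTA library 3, and likewise without group-housed VTA library 1, 5 of the 7 were positive. In the BLA comparison 6 of the 7 were positive, beside 50.8% of all genes, and 4 of the 7 without isolated BLA library 1 or without group-housed BLA library 3. Of the plexins and neuropilins 9 of 11 were negative in each comparison. In VTA 8 or 9 were negative with each library left out in turn and 7 without isolated libraries 1 and 3, but in BLA 5 were negative without isolated library 1 and 6 without group-housed library 3. None of these genes passed the adjusted threshold with all libraries in edgeR's test. Over all 20 semaphorins 13 were positive in each comparison. The sets described here were set apart after their signs were seen.

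**Figure D5:**
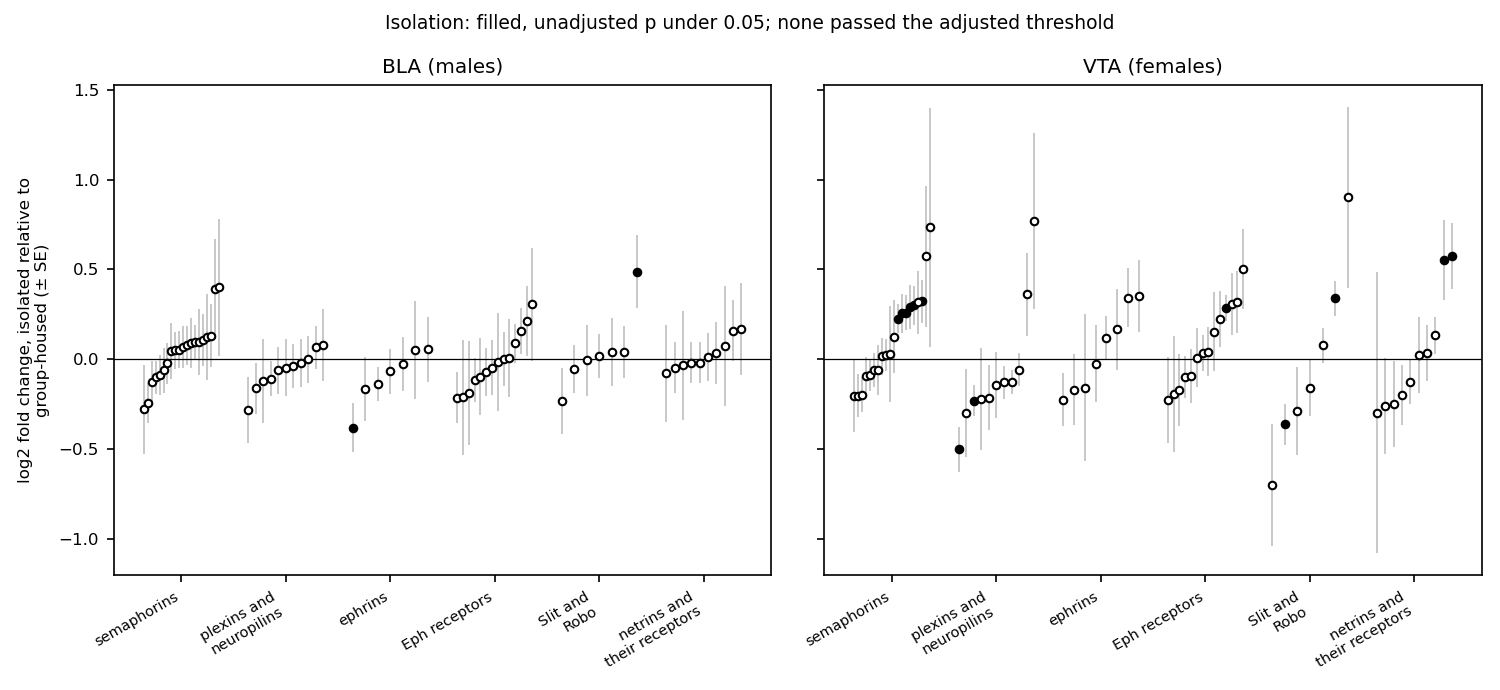
Log2 fold change of isolated relative to group-housed libraries for 69 guidance genes in BLA (left) and 70 in VTA (right), ordered by value within each family, with standard errors. Filled points had an unadjusted p under 0.05 (2 in BLA and 13 in VTA), and 0 passed after adjustment.

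The difference of the isolation responses, BLA minus VTA, was called for 0 of 70 members, beside 0.0% of 25009 genes, and for 0 by DESeq2. At an unadjusted p under 0.05 there were 7 members, 1 positive and 6 negative, beside 14.9% of all genes (6.68% positive and 8.23% negative). The count was 11 without isolated VTA library 2, 4 without isolated VTA library 3, group-housed VTA library 1 or group-housed BLA library 2, 4 when those 3 BLA libraries were left out, and 2 without isolated VTA libraries 1 and 3, with 3.62% to 22.8% over all genes in these fits. Sema6b had the smallest p, with -0.39 (SE 0.125, adjusted p = 0.303). Robo3 gave 1.13 in the fit of all 12 libraries, at an adjusted p of 0.303, and 0.725 to 1.401 with each library left out. The separate fits of the regions gave 0.49 in BLA and -0.70 in VTA for Robo3. Ntng2 gave -0.62 (adjusted p = 0.303) and Sema4g 0.21 (adjusted p = 0.490). Without isolated VTA library 2, Efna3 (-0.71, adjusted p = 0.0347) and Unc5a (-0.84, adjusted p = 0.0455) passed, 2.86% of the members beside 1.9% of all genes. Region and sex cannot be told apart in this contrast.

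Other genes of the pathway, 76 co-receptors, adhesion molecules and cytoplasmic effectors, were all measured. Between the regions 37 were higher in BLA, 19 lower and 20 not called, beside the background of 47.7% given above. Among those with the smallest p in BLA's direction were Trio, a guanine nucleotide exchange factor that acts below netrin and Dcc, at 319.7 to 370.1 CPM against 185.3 to 212.0 CPM (log2 0.84, SE 0.06), and Chn1, which encodes the Rac regulator chimaerin that acts below EphA4 (1.82). In the other direction were Rnd1, a small GTPase that binds plexins, at 13.1 to 20.7 CPM against 35.8 to 51.8 CPM (log2 -1.25, SE 0.10), and the exchange factors Vav3 (-1.20) and Vav2 (-1.03), which act in Eph signalling. For each of these the BLA and VTA ranges did not overlap.
In edgeR's test 0 of the 76 were called for isolation in either region. In VTA DESeq2 called Rac1, and without isolated VTA library 2 edgeR called Rac1 and Pak1, beside 2.01% and 4.81% of all genes. In BLA 23 were positive and 53 negative, with 0 at an unadjusted p under 0.05, beside 1.99% of all genes, and without isolated BLA library 1 the split was 45 to 31 the other way. In VTA 50 were positive and 26 negative, with 14 (18.4%) at an unadjusted p under 0.05, a share at the 18.3% of all genes. The smallest p in VTA was that of Rac1, the GTPase that drives protrusion, at 225.8, 192.1 and 229.8 CPM after isolation and 159.7, 166.9 and 162.6 CPM in group housing (log2 0.35, SE 0.08, adjusted p = 0.236), followed by its effector Pak1 (0.33). Celsr3 (-0.23) and Mical1 (-0.27) led the negative side. In BLA the smallest p were those of Rnd1 (-0.29), Neo1 (-0.21), Ryk (0.15) and Srgap1 (0.35), each at an adjusted p of 1.0.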

How the data were processed

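Each of 12 libraries was made, per the labels' protocols, from punch RNA extracted with Trizol, with a stranded total RNA kit that depletes rRNA. The authors deposited unnormalized read counts per gene. The submitters' processing notes list mm10, HTSeq, TopHat2 and cutadapt, without versions or settings. Whether counting used strand is not given in the sources used here, and exons of 14 members overlap a gene on the opposite strand, so their counts may be shared. Positions and exon lengths come from GENCODE vM21, and promoters from RefSeq.

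The quasi-likelihood F test of edgeR 4.0.16 (R 4.3.3) was run on genes that pass filterByExpr, at a minimum count of 10 and a minimum total of 15, with TMM factors, Benjamini-Hochberg adjustment over every gene tested and a threshold of 0.05. Isolation was fitted on the 6 libraries of a region, and the response difference and BLA against VTA on all 12. A positive fold change is higher after isolation, or in BLA. The count of overlap uses CPM. The procedure was tested on simulated counts. Alternatives were DESeq2 1.42.0, RLE factors, no low-count filter, a replicate block, ribosomal RNA loci left out, 1 fit of all libraries, and libraries left out.

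The members, gene lists, alternatives and tests were chosen with earlier results of these data known. Genes were named by a rule: per family up to 3 in each direction by size of the BLA to VTA difference among called members of at least 1 CPM, the smallest difference and the highest level per kb; per isolation comparison up to 4 in each direction by p; and for the response difference 2. For the pathway list it took up to 3 by p between the regions and 2 per isolation comparison, in each direction. Members named outside it, mostly with only a log2 difference or an alternative's call, were named after their values were seen. One result on the pathway list is not reported here.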

Additional observations from a re-analysis of the deposited data

How the results depend on the processing

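The 52 members called between the regions kept their sign in the 20 alternatives, with 44 to 53 members called, and 49 to 52 when each library was left out. In BLA isolation the members called were 0 in each alternative, and the count over all genes, 0 as reported, was 6 with DESeq2, 8 without the low-count filter, 1 without the 3 BLA libraries rich in ribosomal RNA reads, and 0 to 4 with each library left out in turn. In VTA isolation the members called, 0 as reported, were 1 with DESeq2 and 0 to 4 with each library left out. The count over all genes, 1 as reported, was 485 with DESeq2, 17 without the filter, 0 without the 2 VTA libraries with choroid plexus markers, and 0 to 1200 with each library left out, the 1200 being without isolated library 2. For the response difference, the members called were 0 to 2 and all genes called 0 to 487 with each library left out, both highest without isolated VTA library 2, and all genes called, 0 as reported, were 142 with DESeq2 and 1 without the filter. The causes of these changes were not tested. Where a group was left with 1 library, it was assumed to vary like the others. With the replicate number as a block, the VTA count over all genes was 0, and the members called were 0, 0, 0 and 52 for BLA isolation, VTA isolation, the response difference and BLA against VTA. For same-numbered libraries within a region, the deviations of log2 CPM from the group mean correlated at -0.058 to 0.172 over 6 pairs. The numbers were therefore not taken to pair the libraries. Over 76 values of named genes and 1348 alternatives, 1294 either kept a call with its sign or, without a call, stayed within the standard error. Sign was not checked for values without a call, and small ones such as that of Dcc between the regions (0.042) could turn negative. Of the other alternatives, 18 lost a call, 9 gained one and 27 without a call moved by the standard error or more. With 3 libraries a group and the lowest total at 28278708 counts, members under 1 CPM, such as Ntn5 and Efna4, are the least precise.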
